A study of Homo sapiens with 4 samples.

Results

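RNA from 2 libraries labelled LOVO, 1 of cells grown as spheroids and 1 of cells grown attached to plastic, was compared gene by gene. LOVO is an established human colorectal cancer line. The 2 libraries were taken by their sample labels from a series of 4, the other two being the same pair of cultures of HCT116, another colorectal cancer line. The genotype of each culture was given as wild type. The adherent cells grew in RPMI-1640 medium with serum and without drug. The spheroids formed in ultralow attachment dishes in serum-free DMEM/F12 medium with the supplements B27 and N2 and the growth factors EGF and bFGF, in the presence of oxaliplatin, a platinum drug that crosslinks DNA. The sample label gives a treatment of 1 mg/ml for the spheroids without naming the drug, a different unit from that in the text of the study. Growth form, medium and drug therefore changed together, and their parts cannot be told apart. There was 1 library per condition, so no value below has a replicate error, no test between conditions was possible, and every difference is one between 2 libraries.

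The measurement was FPKM, fragments per kilobase of gene and relative to the number of fragments in the library, which allows levels to be compared between genes. Of 58735 genes in the table, 13704 averaged an FPKM of 1 or more in these 2 libraries and were compared. The log2 fold change given here is log2(FPKM + 1) in spheroids less that in adherent cells, which makes changes of weakly expressed genes look smaller. The libraries held 19778829 reads on genes in adherent cells and 19108069 in spheroids, and genes with reads numbered 24306 and 27070. Intervals given for single genes are 95% exact (Clopper-Pearson) counting intervals of the log2 ratio of the 2 FPKM without a pseudocount. They cover counting error only and compare the libraries, not the conditions. For a gene of 1 kb, the floor of 3 reads below which a level was not read corresponds to an FPKM of 0.167 in adherent cells and 0.149 in spheroids.

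The label of the cells was checked first, against markers of colorectal epithelium. Of 15 such markers, 5 reached an FPKM of 1 in adherent cells and 7 in spheroids, and 5 had no reads in either library: CDX1 and CDX2, transcription factors that set intestinal identity, VIL1, which bundles actin in the brush border, and the surface glycoproteins CEACAM5 and GPA33. Among these 5, CDX2 alone reached an FPKM of 1 in HCT116, with 3.84 in adherent cells and 3.12 in spheroids. The summed FPKM of the 15 markers was 355 in adherent cells and 229 in spheroids, against 1915 and 1440 in HCT116. The FPKM of EPCAM, an adhesion molecule of epithelial cells, was 0.9297 in adherent cells and 1.499 in spheroids, against 85.6 and 79.3 in HCT116. That of CDH1, which encodes E-cadherin, was 0.117 in adherent cells and under the floor of 3 reads in spheroids, against 31.1 and 31.1 in HCT116. Most of the summed level came from 2 keratins of simple epithelia, with an FPKM of 189 and 81.6 for KRT8 and of 122 and 98.8 for KRT18. Of 26 genes of intestinal differentiation, 2 reached an FPKM of 1 in adherent cells and 4 in spheroids. The highest of these was ALPI, the intestinal alkaline phosphatase, with 1013 and 164, a close copy of the placental gene ALPP next to it, so that its counts are uncertain.

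Several genes of mesenchymal cells were present in both libraries and near 0 in HCT116. The FPKM of VIM, the intermediate filament of mesenchymal cells, was 39.4 in adherent cells and 32.2 in spheroids, and that of CDH2, which encodes N-cadherin, was 6.98 and 5.46. Of 9 fibroblast markers, 4 reached an FPKM of 1 in adherent cells and 5 in spheroids, with summed values of 54.3 and 73.2, while COL1A2, which encodes a chain of type I collagen, had 0 reads in adherent cells and 1 in spheroids. The proteoglycans LUM, with 31.4 and 50.4, and DCN, with 10.4 and 9.97, made up most of this sum. COL1A1, which encodes the other chain of type I collagen, was not particular to these libraries, with 9.89 and 6.104 against 5.51 and 15.5 in HCT116. Of 9 leukocyte markers, 0 and 1 reached an FPKM of 1, the 1 being CD14 with 1.79 in spheroids, with summed values of 0.269 and 2.14, and PTPRC, the pan-leukocyte antigen CD45, had 0 and 1 reads. Of 5 endothelial markers, 1 and 2 reached it, CDH5, which encodes VE-cadherin, with 1.05 and 1.42, and PECAM1, an adhesion molecule of endothelium, which went from 5 reads to 992. Of 4 neuronal markers, 1 reached it in each library, SNAP25, a synaptic fusion protein, with 2.81 and 2.04. In these defining markers the data go against the labelled tissue in both libraries alike. The source of this was not tested, the results below hold for the libraries labelled LOVO whatever the cells were, and no result could be given without them. In such bulk samples, fewer cells of a type and less RNA per cell cannot be told apart.

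**Figure D1:**
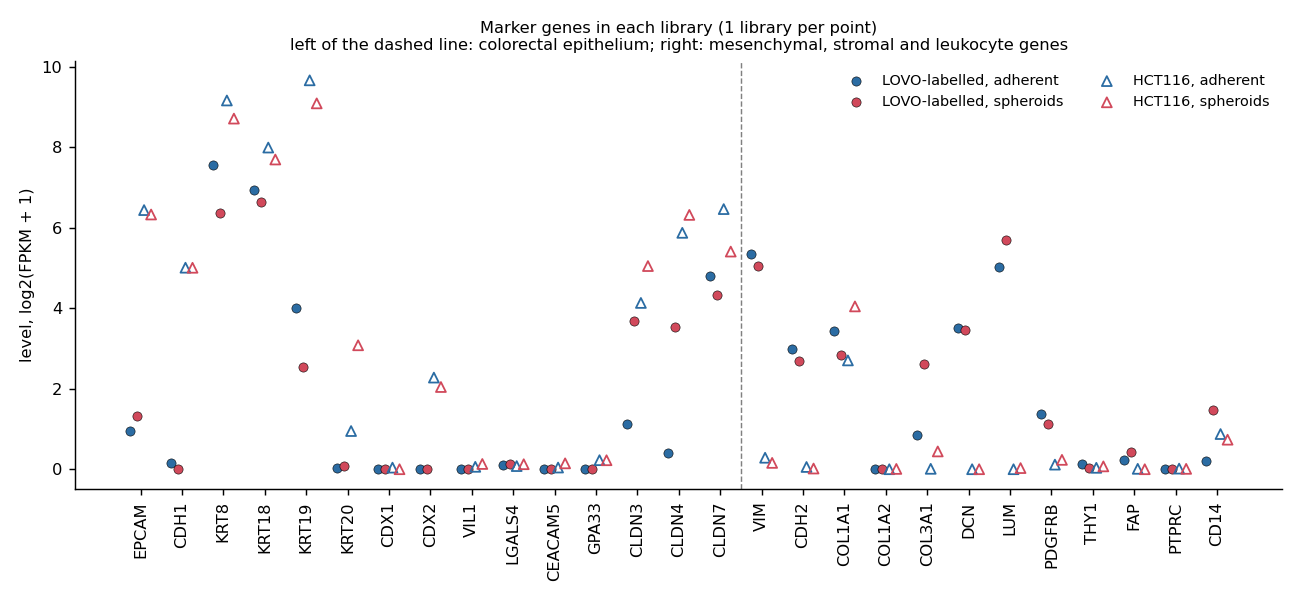
Level of marker genes, as log2(FPKM + 1), in the 4 libraries, with markers of colorectal epithelium left of the dashed line and genes of other cell types right of it. EPCAM and CDH1 lie near 0 in both LOVO-labelled libraries (filled circles) and high in HCT116 (open triangles), while VIM, LUM and DCN show the opposite.

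Several of the changes below belong to regulated programmes whose logic is well known. NF-κB is a family of transcription factors held inactive in the cytoplasm by inhibitors such as NFKBIA, and inflammatory signals free it to induce cytokines, chemokines and its own inhibitors. SREBP transcription factors are kept in the endoplasmic reticulum by the INSIG proteins while sterols are plentiful, and when sterols are scarce they are released and induce the genes of sterol and fatty acid synthesis. ATF4 is translated when amino acids are short or the endoplasmic reticulum is stressed, and it induces amino acid transporters, enzymes of amino acid synthesis and tRNA synthetases.

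More genes crossed the fold threshold upwards than downwards. With a log2 fold change above 2, 270 genes were higher in spheroids, 1.97% of those compared, and with one below -2, 140 genes were lower, 1.02%. The higher genes were thus 65.9% of those past the threshold, and this share was 77.7% with TPM and 77.2% with FPKM rescaled to the reads on genes. Over all genes compared the direction was the other way, with 6089 higher and 7615 lower and a median log2 fold change of -0.09. That median was 0.08 with either rescaling, a shift of 0.18 in the median of all genes, so directions of small changes depend on the scaling. Just inside the threshold lay TSPAN15, a tetraspanin, at 2.002, and just outside it VEGFC, a lymphatic growth factor, at 1.998. Of the 410 genes past the threshold, 8 had a counting interval that included 0. At the threshold of 1 used for the lists below, 9.44% of all compared genes were above 1 and 8.48% below -1.

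**Figure D2:**
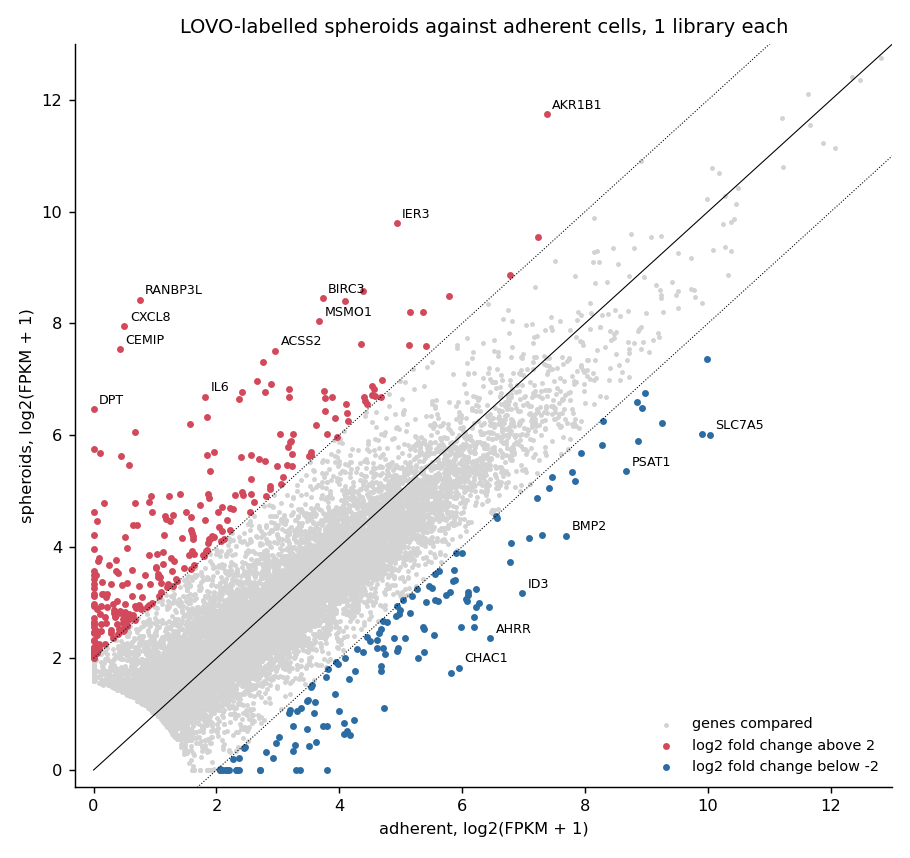
Level of each compared gene in spheroids against its level in adherent cells, both as log2(FPKM + 1), for the LOVO-labelled libraries. The solid line marks equal levels and the dotted lines a difference of 2, past which 270 genes lie above (red) and 140 below (blue).

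On the log2(FPKM + 1) scale the coding gene with the largest increase was RANBP3L, an exporter of nuclear SMAD proteins that lies on chromosome 5 of GRCh38 from 36248434 to 36302114 on the minus strand. Adherent cells had an FPKM of 0.6798, from 41 reads, and spheroids one of 341, from 23104 reads, a log2 fold change of 7.67 with a counting interval of the ratio from 8.53 to 9.45. The second was CXCL8, the neutrophil chemokine interleukin-8, on chromosome 4 from 73740506 to 73743716. Its FPKM went from 0.417 to 245, a log2 fold change of 7.44 with an interval from 8.52 to 9.98. CXCL8 had 17 reads in adherent cells and 11228 in spheroids. The order depends on the pseudocount, since as a plain ratio of FPKM RANBP3L was 502-fold higher, CXCL8 589-fold and TNFAIP6, described next, 711-fold. The ratio of TNFAIP6 rests on 2 reads in adherent cells, under the floor of 3, so its place is uncertain.

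Several of the genes that follow act in the extracellular matrix. CEMIP, a hyaluronan-degrading factor, had an FPKM of 0.344 in adherent cells and 184 in spheroids, a log2 fold change of 7.103. TNFAIP6, which transfers heavy chains onto hyaluronan in inflamed tissue, had 0.0706 and 50.2, the former from 2 reads, and its counting interval ran from 7.62 to 12.52. CD44, the cell surface receptor for hyaluronan, had 11.6 and 33.4, a log2 fold change of 1.44. These were the 3 members above 1 among the 8 compared in a list of hyaluronan genes, which was drawn up after their values had been seen. DPT, a matrix protein that binds decorin, had 0 reads in adherent cells and an FPKM of 87.4 in spheroids, at least 933-fold higher against a floor of 3 reads, although 54.6% of its exonic bases are shared with the overlapping gene AL135926.1. PRSS35, a secreted protein of the trypsin family, had 0 reads and an FPKM of 52.7, at least 769-fold higher. COL8A1, a short-chain collagen, had an FPKM of 5.75 in adherent cells and 156 in spheroids, a log2 fold change of 4.54.

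The other genes among the 15 with the largest increases came from unlike classes. ARNT2, a partner of bHLH-PAS transcription factors, had an FPKM of 0.598 in adherent cells and 65.4 in spheroids. ARNT2 and CEMIP lie on chromosome 15 at the ends of a stretch of 6 consecutive compared genes that all had log2 fold changes above 1, of which AC108451.2 and MIR5572 share exonic bases with ARNT2, so that reads may be common to them. DMBT1, a scavenger receptor-like protein of mucosal secretions, had 0.131 and 26.6. KLRC1, a receptor of natural killer cells, had 0 reads in adherent cells and an FPKM of 23.5 in spheroids, at least 379-fold higher, while PTPRC stood at 0 and 1 reads as given above. KLRC1 forms a stretch of 3 with KLRC2 and KLRC3 on chromosome 12, with a median log2 fold change of 4.40. It shares 1.37% of its exonic bases with KLRC2, so that reads may be common to these related genes.

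**Figure D3:**
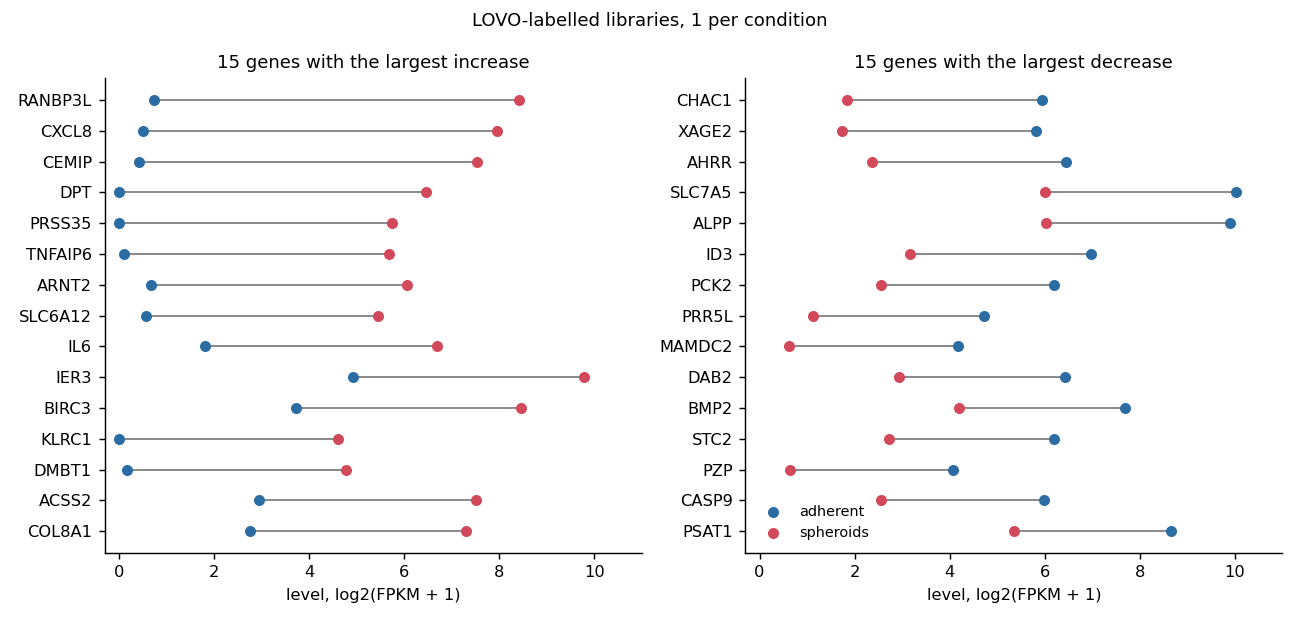
Levels, as log2(FPKM + 1), in adherent cells (blue) and spheroids (red) of the 15 coding genes with the largest increase (left) and the 15 with the largest decrease (right). DPT, PRSS35 and KLRC1 had 0 reads in adherent cells, and SLC7A5 and ALPP were among the highest of the genes that were lower in spheroids.

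Cytokines, chemokines and other targets of NF-κB were higher in spheroids as a group. Of 21 compared genes in a list of NF-κB targets and chemokines, 16 had a log2 fold change above 1 and 2 one below -1, with a median of 1.74, where 9.44% and 8.48% of all compared genes passed these thresholds and the median was -0.09. The summed FPKM of the list was 236 in adherent cells and 1904 in spheroids. Of the 23 listed, 15 reached an FPKM of 1 in adherent cells and 22 in spheroids. Some were thus compared only through their level in spheroids, which favours increases in the count. In HCT116 the median of the same genes was -0.12, with 1 gene above 1 and 1 below -1, and the difference between the lines was not tested. Here and below, the same genes were chosen by their level in the LOVO-labelled libraries. The pseudocount draws those that are low in HCT116 towards 0.

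The promoter sequences of this group are shown for the stretches that hold the letters GGANTTTCC, one form of the NF-κB motif, in either orientation and in capitals. They run 5′ to 3′ on the strand of the gene, are taken from RefSeq promoters on GRCh38.p14 and are those of the neutrophil chemokines CXCL8 and CXCL2, the cytokine IL6, the inhibitor NFKBIA and the adhesion molecule ICAM1.
CXCL8 (chr4:73740448-73740516, plus strand): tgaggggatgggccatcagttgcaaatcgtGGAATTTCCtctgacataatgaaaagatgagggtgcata
CXCL2 (chr4:74099234-74099302, minus strand): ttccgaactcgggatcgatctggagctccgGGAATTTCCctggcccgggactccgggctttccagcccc
IL6 (chr7:22727098-22727166, plus strand): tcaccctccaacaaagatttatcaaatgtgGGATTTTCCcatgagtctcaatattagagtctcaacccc
NFKBIA (chr14:35404792-35404860, minus strand): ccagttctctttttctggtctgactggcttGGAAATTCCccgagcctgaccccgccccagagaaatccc
ICAM1 (chr19:10270904-10270972, plus strand): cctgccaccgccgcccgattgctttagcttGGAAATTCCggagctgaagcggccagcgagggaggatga

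The letters begin 91 bases before the RefSeq start of CXCL8, 77 before that of CXCL2 and 72 before that of IL6. The IL6 stretch lies inside the span of the gene as deposited, from 22725884 to 22732002. The letters of CXCL2 also lie inside the deposited gene, whose minus-strand start is at 74099293. The CXCL8 stretch runs past the deposited start of its gene at 73740506, with the letters before it. Of 22 compared genes of the NF-κB and cytokine lists that had a promoter in the table, 11 held them within 250 bases before the start. Among them were 9 of the 18 whose log2 fold change was past 1, so the letters were no more frequent in those. Of all 27305 promoters, 1.79% held them. The letters and the cytokine list were chosen after the values had been seen, lists of this kind were drawn up in part from promoter studies, and a match of letters is a description of the sequence only.

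Among the ligands, IL6 had an FPKM of 2.53 in adherent cells and 102 in spheroids, a log2 fold change of 4.86, with 20.7% of its exonic bases shared with another gene. CXCL2 had 8.36 and 42.5, a log2 fold change of 2.22. IL33, an alarmin released by damaged cells, had 0 reads in adherent cells and an FPKM of 17.4 in spheroids, at least 338-fold higher. TNF, the founding member of its cytokine family, had 0 reads and an FPKM of 6.85, at least 68.6-fold higher. Of these ligands, IL33 and TNF were thus without reads in the adherent library, while IL6 and CXCL2 were above an FPKM of 1 there. TNFSF15, a cytokine of the TNF family, had an FPKM of 0.0565 in adherent cells and 12.3 in spheroids. SAA1, an acute-phase apolipoprotein, had 2.31 and 25.7, a log2 fold change of 3.01. Of the 14 compared members of the cytokine list, 9 were above 1 and 1 was below -1, beside 9.44% and 8.48% of all compared genes. Of the 24 listed, 6 reached an FPKM of 1 in adherent cells and 14 in spheroids. Some were thus compared only through their level in spheroids, which favours increases in this count.

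Other members of the list act inside the cell. BIRC3, an inhibitor of apoptosis and ubiquitin ligase of the TNF receptor complex, had an FPKM of 12.3 in adherent cells and 349 in spheroids, a log2 fold change of 4.72. IER3, an early-response regulator of survival, had 29.5 and 882, a log2 fold change of 4.85, with 26.5% of its exonic bases shared with its antisense gene. NFKBIA, the feedback inhibitor, had 22.7 and 113, a log2 fold change of 2.26. The subunits themselves differed less, with a log2 fold change of 1.74 for RELB, 1.12 for NFKB2 and 0.14 for NFKB1. TNFAIP3, another feedback inhibitor, was at -0.69. The 2 members below -1 were IL18, an inflammasome-processed cytokine, with an FPKM of 40.1 and 9.74, and CXCL16, a transmembrane chemokine, at -1.18.

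Interferon-stimulated genes and antigen presentation were also higher, by smaller amounts. Of 34 compared interferon-stimulated genes, 12 were above 1 and 0 below -1, with a median of 0.53. IFITM1, which blocks entry of viruses at membranes, had an FPKM of 149 in adherent cells and 743 in spheroids, a log2 fold change of 2.305. IFI6, an interferon-induced membrane protein, had 479 and 1913, and was thus abundant in both. Of 14 compared genes of MHC class I presentation, 6 were above 1 and 0 below -1, with a median of 0.95. HLA-F, a class I molecule outside the classical set, had 3.27 and 25.1, and TAPBP, which loads peptides onto class I molecules, had 22.1 and 74.6. HLA-B and HLA-C were at 1.12 and 1.11, and reads of these closely similar genes may not be separate. The median of the same genes in HCT116 was 0.11 for the interferon list and 0.06 for class I. Of the 35 listed interferon genes, 33 in adherent cells and 34 in spheroids reached an FPKM of 1 here, against 23 and 24 in HCT116. Of the 15 class I genes, 14 and 14 did so here, against 11 and 12.

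Genes of sterol and fatty acid synthesis were mostly higher. Of the 11 enzymes of the mevalonate pathway, which builds squalene and lanosterol from acetyl-CoA, 10 were above 1 and 0 below -1, with a median of 2.01. Of the 10 that turn lanosterol into cholesterol, 7 were above 1 and 0 below -1, with a median of 1.46. The medians of the same genes in HCT116 were 0.35 and 0.21.

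Before lanosterol, MVD, which makes isopentenyl diphosphate, had an FPKM of 8.11 in adherent cells and 101 in spheroids, a log2 fold change of 3.49 with a counting interval of the ratio from 3.53 to 3.76. SQLE, which oxidises squalene, was at 2.56. PMVK, a kinase of the same pathway, was the only mevalonate enzyme that was lower in spheroids, at -0.57. Past lanosterol, MSMO1, a demethylating oxidase, had 11.7 and 261, a log2 fold change of 4.36. DHCR7, a reductase of the last steps to cholesterol, had 34.2 and 194. Counts of CYP51A1 and ACAT2, at 1.03 and 1.53, are uncertain, since most of their exonic bases overlap exons of other genes.

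The genes that sense and import sterols went the same way. Of 13 compared, 6 were above 1 and 0 below -1, with a median of 0.95. INSIG1, the sterol-dependent anchor of SREBP, had an FPKM of 34.3 in adherent cells and 292 in spheroids, a log2 fold change of 3.05. STARD4, which carries cholesterol through the cytosol, had 6.298 and 31.6, a log2 fold change of 2.16. The mRNAs of the SREBP factors themselves were at -0.54 for SREBF1 and 0.402 for SREBF2, and the mRNA level does not show the processing of the protein.

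Of 13 genes of fatty acid synthesis, 7 were above 1 and 0 below -1, with a median of 1.22 against 0.01 in HCT116. ACSS2, which makes acetyl-CoA from acetate, had an FPKM of 6.74 in adherent cells and 181 in spheroids, a log2 fold change of 4.56 with an interval of the ratio from 4.63 to 4.86. FASN, the fatty acid synthase, had 53.98 and 359.5, a log2 fold change of 2.71. SCD, the desaturase that makes oleate, had 282 and 949.6, and was the most abundant gene of the list in both libraries. ACSL3, which activates long-chain fatty acids, was lower, at -0.99. A form of the sterol response motif, TCACCCCAC, lay within 250 bases before the start in 2 of 37 promoters of the sterol and fatty acid lists. It was in 0.450% of all promoters, and 1 of the 23 listed genes past 1 held it.

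Genes of osmolyte handling included some of the largest increases in the table, while the others of the list stayed within 1. Of 9 compared, 4 were above 1 and 0 below -1, with a median of 0.21. AKR1B1, aldose reductase, which makes sorbitol from glucose, had an FPKM of 165 in adherent cells and 3424 in spheroids, and took 1.32% of all reads on genes there, more than any other gene. SLC6A12, the betaine transporter, had 0.486 and 42.95, a log2 fold change of 4.89. SLC5A3, a myo-inositol transporter whose gene lies within MRPS6 so that reads may not be separate, had 4.35 and 108. ISYNA1, which makes inositol phosphate, had 1.07 and 5.37. NFAT5, the transcription factor that responds to high osmolarity, was at -0.37, and SLC6A6, the taurine transporter, at 0.21.

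Among other aldo-keto reductases, AKR1B10, which lies beside AKR1B1 on chromosome 7 and reduces retinals, had an FPKM of 2.62 in adherent cells and 29.8 in spheroids. AKR1C1, a hydroxysteroid dehydrogenase on chromosome 10, had 5.88 and 45.4, although the AKR1C genes are close copies and reads may have been shared among them. These genes are commonly listed as targets of NRF2, the regulator of the oxidant response, but the rest of that list did not follow. Of 23 NRF2 targets, 4 were above 1 and 6 below -1, with a median of -0.44. TXNRD1, thioredoxin reductase, had 193 and 49.6, and NQO1, the quinone reductase, had 162 and 50.5, log2 fold changes of -1.94 and -1.66. The letters TGACNNNGC of the antioxidant response element, in either orientation, were within 250 bases before the start in 4 of 19 promoters of this list and in 13.2% of all.

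Hypoxia targets outside glycolysis were partly higher, with 6 of 18 above 1, 0 below -1 and a median of 0.86. ANGPTL4, an inhibitor of lipoprotein lipase, had an FPKM of 0.921 in adherent cells and 29.1 in spheroids, a log2 fold change of 3.97. CA9, a carbonic anhydrase of the cell surface, had 7.98 and 54.2. EGLN3, the oxygen-sensing prolyl hydroxylase, had 1.07 and 9.99. Of 22 glycolytic enzymes, 4 were above 1 and 3 below -1, beside 9.44% and 8.48% of all compared genes. GAPDH, of the payoff phase, had 869.6 and 388, a log2 fold change of -1.16.

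Integrins are surface receptors for matrix, and laminins are among their ligands. Of 17 integrins and laminins compared, 7 were above 1 and 1 below -1, with a median of 0.51. ITGA2, a collagen receptor subunit, had an FPKM of 2.67 in adherent cells and 28.1 in spheroids, a log2 fold change of 2.99. ITGA5, the subunit of the fibronectin receptor, had 8.32 and 58.6, a log2 fold change of 2.68. LAMA1, a laminin chain of early basement membranes, was the member below -1, at -1.504.

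Of 11 compared genes of the EGF receptor family and its ligands, 3 were above 1 and 1 below -1, with a median of 0.56. Of 6 compared genes of the FGF system, 2 were above 1 and 1 below -1, with 3 higher and 3 lower in all. Among all compared genes, 9.44% were above 1 and 8.48% below -1. The FPKM of EREG was 8.44 in adherent cells and 63.9 in spheroids, and that of AREG was 6.33 and 32.96. EGFR had 83.99 and 49.2, a log2 fold change of -0.76. Of 13 feedback genes of the ERK pathway, which EGF and FGF receptors feed, 6 were above 1 and 0 below -1, with DUSP6, the ERK phosphatase, at 2.06. FGFBP1, which releases FGFs from the matrix, had an FPKM of 16.00 and 335. The medium of the spheroids held added EGF and bFGF, and the part of these in the result was not tested.

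Genes of cell junctions were mostly a little lower, with 14 of 18 compared below 0 and a median of -0.36. Over all compared genes, 7615 of 13704 were below 0. Of the 18, 3 were below -1 and 2 above 1, beside 8.48% and 9.44% of all compared genes. The 2 above 1 were the claudins CLDN4 and CLDN3, which form tight junctions and went from an FPKM of 0.3202 and 1.18 in adherent cells to 10.5 and 11.9 in spheroids. Of the 7 compared markers of colorectal epithelium, these 2 claudins were above 1 and another 2, KRT8 among them, were below -1. The others were CLDN7 at -0.47, EPCAM at 0.37 and KRT18 at -0.2996. Of 10 compared genes listed for the epithelial-mesenchymal transition, 3 were above 1 and 1 below -1, with a median of 0.35. The highest was PRSS8, an epithelial membrane protease, with an FPKM of 0.556 and 20.05, a log2 fold change of 3.76. Several keratins were lower, with 5 of 10 compared genes of the keratin and vimentin list below -1. KRT17, a keratin of stressed and basal epithelium, had 484 and 88.8, and KRT7, of simple ductal epithelium, had 242 and 50.3.

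Of the 15 coding genes with the largest decreases, 5 were on lists of ATF4 targets in amino acid metabolism and stress, namely CHAC1, SLC7A5, PCK2, STC2 and PSAT1. CHAC1, which degrades glutathione, had an FPKM of 60.9 in adherent cells and 2.56 in spheroids, a log2 fold change of -4.12 with a counting interval of the ratio from -4.87 to -4.29. Stretches of promoter around the letters TGATGCAA, the amino acid response element bound by ATF4 and C/EBP proteins, are shown in the same way for CHAC1, for SLC1A5, a glutamine transporter, and for CEBPG, a C/EBP partner of ATF4.
CHAC1 (chr15:40953232-40953299, plus strand): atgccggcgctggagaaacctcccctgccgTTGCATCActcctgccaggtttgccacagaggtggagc
SLC1A5 (chr19:46784874-46784941, minus strand): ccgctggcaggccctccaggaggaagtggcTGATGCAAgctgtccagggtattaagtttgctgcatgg
CEBPG (chr19:33374041-33374108, plus strand): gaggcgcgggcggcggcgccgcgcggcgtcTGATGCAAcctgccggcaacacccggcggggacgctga

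In CHAC1 the letters stand in the opposite orientation, 209 bases before a RefSeq start. In SLC1A5 and CEBPG they begin 97 and 42 bases before one. All 3 stretches lie inside the spans of their genes as deposited, so these starts are not the outermost ones. SLC1A5 runs from 46774883 to 46788594 on the minus strand, and its stretch lies well inside it. They were present within 250 bases before a start in 6 of 46 compared genes of the ATF4 and tRNA synthetase lists that had a promoter. Among all promoters 0.967% held them. Each of the 6 had a log2 fold change below -1, but 37 of the 46 genes were past 1 in any case. As above, such lists were drawn up in part from promoter studies, and a match of letters is a description of the sequence only. The FPKM of SLC1A5 was 148 in adherent cells and 38.8 in spheroids, and that of CEBPG was 31.00 and 7.61.

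Of 9 amino acid transporters listed as ATF4 targets, 8 were below -1 and 0 above 1, with a median of -2.06. SLC7A5, the light chain of the large neutral amino acid transporter, lies on chromosome 16 from 87830023 to 87869488 on the minus strand, and its FPKM was 1041 in adherent cells and 63.2 in spheroids, with a counting interval of the log2 ratio from -4.08 to -4.005. SLC3A2, its heavy chain, had 461 and 58.2, a log2 fold change of -2.97. SLC7A11, the cystine importer, had 35.1 and 7.65. SLC38A2, a transporter of neutral amino acids, hardly differed, at -0.305.

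Of 11 compared enzymes of amino acid and one-carbon synthesis, 9 were below -1, with a median of -2.002. The serine pathway was lower at all 3 of its steps, PHGDH with an FPKM of 37.99 and 2.998, PSAT1 with 404 and 39.7, and PSPH with 76.2 and 6.95. PCK2, the mitochondrial PEP carboxykinase, had 72.4 and 4.88, a log2 fold change of -3.64. CTH, which makes cysteine, had 109 and 12.3, a log2 fold change of -3.05 where HCT116 had 0.65. The proline enzymes were nearer to 0, PYCR1 at -0.71 and ALDH18A1 at 0.104.

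Of 15 regulators and stress genes downstream of ATF4, 13 were below -1 and 0 above 1, with a median of -1.69. STC2, a stress-induced secreted glycoprotein, had an FPKM of 72.4 in adherent cells and 5.64 in spheroids. SESN2, a leucine sensor of the mTORC1 pathway, had 52.3 and 7.74, a log2 fold change of -2.61. GDF15, a stress hormone, had 57.7 and 9.57. Of 20 cytosolic tRNA synthetases, 13 were below -1 and 0 above 1, with a median of -1.32. GARS, which charges glycine tRNA, had 219.6 and 39.6, a log2 fold change of -2.44. Medians of the same genes in HCT116 were -1.05 for transporters, -1.28 for synthesis, -1.01 for regulators and -0.68 for tRNA synthetases.

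Chaperones of the endoplasmic reticulum, another stress-controlled group, did not follow the ATF4 lists. Of 16, 1 was above 1 and 0 below -1, with a median of 0.39, against -0.71 in HCT116. PDIA4, a disulphide isomerase, had an FPKM of 67.1 in adherent cells and 136 in spheroids, and XBP1, the transcription factor of this response, had 107 and 63.5. Among 13 heat shock proteins, HSPA1A and HSPA1B, inducible HSP70 genes so alike that reads may have been split between them, were at 2.27 and 2.42, whereas HSPD1, the mitochondrial chaperonin, was at -1.695.

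Ribosomal protein genes were lower throughout. All 77 compared cytosolic ribosomal protein genes were lower in spheroids, 50 of them below -1, with a median of -1.19 and a range of -1.68 to -0.37. Processed pseudogenes of these genes are many, so that reads may be shared with them. The summed FPKM of the 77 genes was 18248 in adherent cells and 7980 in spheroids. RPLP0, a stalk protein of the large subunit, had 420.0 and 130.5, and RPS6, a kinase target in the small subunit, had 323 and 101. Of 31 proteasome subunits, 7 were below -1 with a median of -0.75, and of 34 nuclear respiratory chain subunits, 2 were below -1 with a median of -0.61. Over all compared genes 8.48% were below -1, and the median was -0.09. The 13 mRNAs encoded by mitochondria had a median of -0.05, with 5 higher and 0 past 1 either way, and their median was 0.15 with TPM and 0.16 with FPKM rescaled to the reads on genes.

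BMP signalling genes formed another lower group, in a list drawn up after their values had been seen. Of 15 compared, 6 were below -1 and 2 above 1, with a median of -0.82, against 0.74 in HCT116. BMP2, a ligand of the pathway, had an FPKM of 206 in adherent cells and 17.3 in spheroids, a log2 fold change of -3.498. ID3, ID2 and ID1, direct targets that block bHLH factors, were at -3.81, -1.94 and -1.46. ID3 had 125 and 7.97, and ATOH8, a bHLH factor induced by BMP, had 11.3 and 0.409. The extracellular antagonists CHRD and FST, which bind ligands of this family, were the members above 1, at 2.67 and 1.56. RANBP3L, described above, encodes a protein that removes BMP SMADs from the nucleus, and any link of its level to these genes was not tested.

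**Figure D4:**
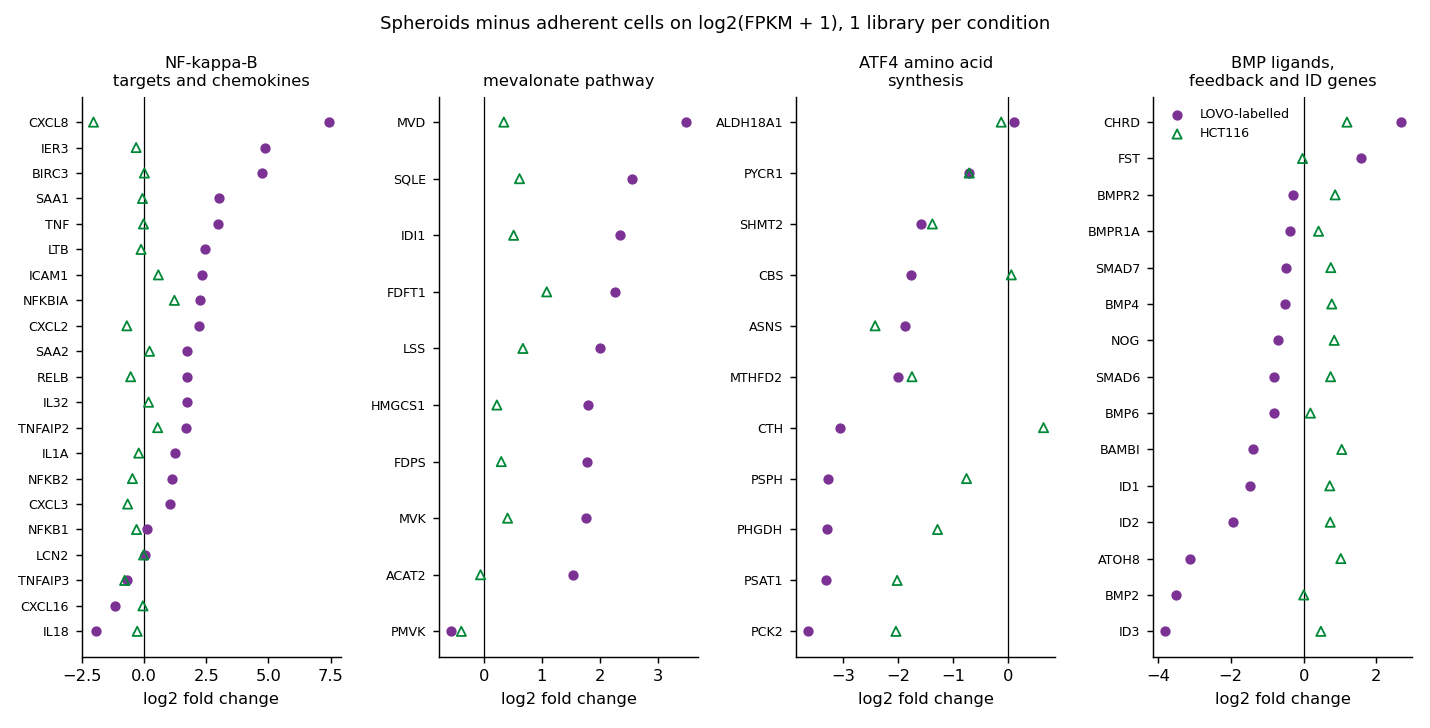
Log2 fold change, spheroids minus adherent cells, of compared members of 4 gene lists in the LOVO-labelled libraries (filled circles), with the values of the same genes in HCT116 (open triangles) beside them. CXCL8 was at 7.44 and -2.03, and the BMP list lies mostly below 0 in the one and above 0 in the other.

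YAP targets, which mark cells that are spread and under tension, were lower, with 8 of 15 below -1, 1 above 1 and a median of -1.27. AJUBA, an adaptor at junctions that restrains the LATS kinases, had an FPKM of 73.4 in adherent cells and 8.45 in spheroids, a log2 fold change of -2.98. AMOTL2, an angiomotin that binds YAP, had 54.9 and 8.11. DKK1, a secreted WNT inhibitor, had 30.2 and 5.97. CTGF, the matricellular target most used as a readout, had 5.98 and 0.255. The member above 1 was NT5E, an ectonucleotidase, at 1.41. Of 17 SRF targets and actin genes, 2 were below -1, beside 8.48% of all compared genes, with a median of -0.37. Among these 2 was THBS1, thrombospondin, at -1.91.

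The other genes among the 15 with the largest decreases were of mixed function. ALPP, the placental alkaline phosphatase, had an FPKM of 959 in adherent cells and 63.9 in spheroids, a log2 fold change of -3.89, and its neighbours ALPG and ALPI, of the same enzyme family, were at -2.95 and -2.62. These genes are close copies, so their counts are uncertain. AHRR, the repressor of the aryl hydrocarbon receptor, had 86.6 and 4.15, a log2 fold change of -4.09. CASP9, the initiator caspase of the mitochondrial pathway, had 62.05 and 4.905, a log2 fold change of -3.42. DAB2, an endocytic adaptor, had 85.1 and 6.61. PRR5L, a partner of mTORC2, had 25.4 and 1.17. XAGE2, a cancer-testis antigen, had 55.7 and 2.33, MAMDC2, a matrix proteoglycan, had 17.1 and 0.542, and PZP, a protease inhibitor, had 15.8 and 0.567.

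Genes of cell division were lower by less than in HCT116. Of 30 G2/M genes, 6 were below -1 and 0 above 1, with a median of -0.79, against 28 below -1 and a median of -1.90 in HCT116, a difference that was not tested. PLK1, a mitotic kinase, had an FPKM of 33.6 in adherent cells and 10.8 in spheroids, and MKI67, the proliferation antigen, had 32.04 and 15.9. Of 35 replication genes, 3 were below -1, a share near the 8.48% of all compared genes, but 31 were below 0, with a median of -0.63, with MCM2, a subunit of the replicative helicase, at -1.42. Replication-dependent histones went the other way, with 13 of 37 compared above 1, 0 below -1 and a median of 0.78. Most of these mRNAs end in a stem-loop instead of poly(A), and the part of library preparation was not tested.

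Oxaliplatin damages DNA, and genes that respond to such damage or handle the drug were also listed. Of 24 compared p53 targets, 2 were above 1 and 2 below -1, with a median of -0.21, beside 9.44% above 1 and 8.48% below -1 among all compared genes. CDKN1A, the p21 inhibitor of cyclin-dependent kinases, had an FPKM of 24.5 in adherent cells and 63.9 in spheroids, a log2 fold change of 1.35, whereas TP53I3, a quinone oxidoreductase, had 9.99 and 3.396. Of 23 crosslink and excision repair genes, 0 were past 1 in either direction, with a median of -0.25. Of 18 compared glutathione transferases and peroxidases, 0 were past 1, with a median of -0.58. Of 8 compared drug efflux transporters, 1 was above 1 and 2 below -1, beside the same 9.44% and 8.48%, and the median was -0.46. Among them, ABCC4 was at -1.702, ABCB1, which encodes P-glycoprotein, at -1.45 and ABCC3, which exports conjugates, at 1.38. Of 5 compared genes of platinum transport, 0 were above 1 and 1 below -1, with a median of -0.74. SLC22A3, an organic cation transporter that carries oxaliplatin, had an FPKM of 10.4 in adherent cells and 3.61 in spheroids.

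Markers used for stem-like cells were split. Of 11 compared from a list of 22, 3 were above 1 and 2 below -1, with a median of 0.19. Among all compared genes these shares were 9.44% and 8.48%. CD24, a surface sialoglycoprotein, had an FPKM of 88.6 in adherent cells and 23.4 in spheroids, a log2 fold change of -1.88, and pseudogenes of CD24 may share its reads. CXCR4, the receptor for CXCL12, had 14.2 and 48.5, and POU5F1, the pluripotency factor OCT4, had 4.41 and 10.3. PROM1, which encodes CD133, had 4 and 7 reads and SOX2, a pluripotency factor, 0 and 1, so that these were not compared. Of 12 compared aldehyde dehydrogenases, 4 were below -1 and 0 above 1, with a median of -0.78. WDR5, a core subunit of H3K4 methyltransferase complexes, was at -0.84, and of the 16 genes of these complexes 0 were past 1, with a median of 0.05.

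Long intergenic non-coding RNAs stood higher than coding genes as a class, as did several other non-coding classes. Their share of reads on genes went from 0.621% to 1.44%, while the share of mitochondrial rRNA went from 0.661% to 0.403%. The 527 compared lincRNAs had a median log2 fold change of 0.29 and the 10984 coding genes one of -0.14. Antisense genes, at 0.26, and unprocessed pseudogenes, at 0.29, were much like the lincRNAs, whereas processed pseudogenes were at -0.41. Among the 5 non-coding genes with the largest decreases was LINC01133, with an FPKM of 8.68 in adherent cells and 0.362 in spheroids. PPIAP46, a processed pseudogene of cyclophilin A whose reads may come from elsewhere, had 1.96 and 72.2.

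Genes changed beyond 1 on the log2 scale in one direction also stood side by side in the genome. There were 82 stretches of 3 or more consecutive compared genes, 56 of them higher and 26 lower, the longest with 7 genes. Over all compared genes 9.44% were above 1 and 8.48% below -1, and how many stretches would arise without regard to position was not tested. Some stretches hold entries that share exonic bases, such as IER3 with IER3-AS1 and SLC6A12 with AC007406.4, so that reads may be common to them. The lower stretch of 7, of which 5 are coding genes, lay on chromosome 19 of GRCh38 from 3521248 to 3606840 and had a median of -2.65. It included HMG20B, a subunit of a histone demethylase complex, with an FPKM of 124 in adherent cells and 33.4 in spheroids, and TBXA2R, the thromboxane receptor, with 17.1 and 5.39. Another lower stretch, on chromosome 7, held TES, CAV2, CAV1 and MET, of which CAV1, the coat protein of caveolae, had 42.6 and 12.3. On chromosome 6 a higher stretch from 31982024 to 32115334 held C4A, C4B and TNXB, genes of complement and matrix in a duplicated segment, where reads may be shared. Medians by chromosome ranged from -0.32 on chromosome 18 to 0.07 on chromosome 19 among nuclear chromosomes of the table. The counts past 1 were opposed on some, with 7 genes above 1 and 33 below -1 of 210 on chromosome 13, 10 and 26 of 201 on chromosome 18, and 116 and 59 of 705 on chromosome 6. By gene length, the medians went from 0.08 in the shortest of 5 equal classes to -0.16 in the longest.

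Of the 270 genes above 2, 30 were above 1 and 6 below -1 in HCT116, and 41 had no more than 3 reads in either HCT116 library. Of the 140 below -2, 19 were below -1 and 7 above 1 there, and 28 had so few reads. Values from the 2 lines stand side by side only, and none of these differences was tested.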

How the data were processed

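RNA-seq was measured in 4 libraries of 2 cell lines. The authors deposited FPKM, 1 value per gene and library, with gene length and coordinates. The aligner and counting program are not given in the sources used here. The submitters' processing notes name the mouse builds GRCm38 and mm10, but all 58735 gene identifiers matched the human GENCODE release 29 annotation of GRCh38, 58724 of them with the same start and end. The fold threshold of the methods of the study was kept, as 2 on the log2 scale. No count model was run, since there was 1 library per condition.

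From the deposited FPKM, log2(FPKM + 1) was computed with a pseudocount of 1, and only genes averaging an FPKM of 1 or more were compared. FPKM times gene length gave whole reads for 100% of the values above 0, within 0.01 of a whole number, and these reads gave the depth, the counting intervals and the floor of 3 reads. The library sizes behind the FPKM were 0.907 times the reads on genes in adherent cells and 1.05 times in spheroids, so the deposited values already carry a scaling, which differed from TMM factors by -0.0028 on the log2 scale. The calculations were tested on simulated data. Python 3.11.15, numpy 2.4.6, pandas 2.3.3, scipy 1.17.1 and matplotlib 3.10.9 were used. Promoters were 250 bases before the RefSeq start, and a gene with several such starts counted if any of them held the letters.

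The comparison and the 55 gene lists were chosen with earlier results of these data known. Another 3 lists (hyaluronan, cytokines and BMP) and the NF-κB letters were chosen after the values had been seen. The rule for named genes took the 15 coding and 5 non-coding genes with the largest change in each direction with at least 100 reads in the higher library, the members with the largest change of each list, the members needed to give a whole role, and the genes the study names. ALPG, HMG20B, TBXA2R, CAV1, TSPAN15 and VEGFC fall outside it and were chosen after their values were seen. Alternatives were other pseudocounts, filters, scalings and thresholds. Not analysed here were assays other than RNA-seq, and values of a few single genes are not reported here, though counts and medians of lists include them.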

Additional observations from a re-analysis of the deposited data

Results flagged for a closer look

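In 12 of the genes described, the 2 lines differed in direction, each with a log2 fold change past 1 and a counting interval that did not include 0. With 1 library per condition in each line, none of these differences was tested. Among inflammatory and early-response genes, CXCL8, the interleukin-8 chemokine, was at 7.44 in the LOVO-labelled libraries and -2.03 in HCT116. ZFP36, which promotes decay of cytokine mRNAs, was at 1.81 and -2.15, and JUNB, a subunit of AP-1, at 1.93 and -1.13. Among stress genes, the HSP70 genes HSPA1A and HSPA1B were at 2.27 and 2.42 in the LOVO-labelled libraries and at -1.39 and -1.35 in HCT116. The metallothionein MT2A was at 1.92 and -1.75, and PDIA4, a chaperone of the endoplasmic reticulum, at 1.01 and -1.58. The genes lower in the LOVO-labelled spheroids were ALPG, an alkaline phosphatase whose close copies may share its reads, at -2.95 and 1.46, ATOH8, at -3.12 and 1.02, MAMDC2, at -3.55 and 1.04, CD24, at -1.88 and 1.53, and TP53I3, at -1.32 and 1.21.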

How the results depend on the processing

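No paired analysis was possible because each condition had 1 library, and no replicate could be left out. The number of genes above the fold threshold, 270, was 661 with a pseudocount of 0.1, 713 with one of 0.01, 677 with TPM, 171 with a mean FPKM of at least 5 and 1294 at a threshold of 1. The number below it, 140, was 278, 307 and 1162 with those pseudocounts and that threshold. A smaller pseudocount lets genes of low level pass, and TPM are larger than FPKM here, which sum to 303663 in adherent cells and 263400 in spheroids, so that the same pseudocount weighs less. With more than 30 reads required in the higher library, a filter added after seeing the data, the counts were 245 and 127. Of 286 genes with alternatives, 1 changed sign, DCN, which was at 0.15 with TPM and with FPKM rescaled to the reads on genes and at 0.04 after centring on the median. Medians of 57 lists changed sign in 23 of 568 values, over 13 lists. In 11 of these the reported median lay between -0.32 and 0.21, and the other two had few members compared, namely intestinal differentiation (-0.93, 3 compared, 0.02 with no filter on low values) and platinum transport (-0.74, 5 compared, 0.07 with no filter). Among the 11 were the stem-like markers (-0.28 with a mean FPKM of at least 5), the osmolyte genes (-0.05) and the collagens (-0.62) under that filter. The causes of these sign changes were not tested. With 19108069 to 19778829 reads on genes, the depth limits the genes under the floor of 3 reads, 83 of those compared in both libraries.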
